A study of Mus musculus with 12 samples.

Results

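The 6 metabotropic glutamate receptor genes measured here in 3 regions of the adult mouse hippocampus were chosen as the rows of the UMI table whose symbol was Grm2, Grm3, Grm4, Grm5, Grm7 or Grm8. All 6 were found among 32546 genes. The tissue came from male ICR mice (Slc:ICR in the study's methods), an outbred stock, at 8 weeks of age, and the labels name no engineered allele in any group. CA1, CA3 and the dentate gyrus (DG) were each illuminated on brain sections in 4 conditions, with 4 replicates each, which gave 48 samples. The sample titles and the study's methods name CA3, which is used here, while the design text of the series names CA2 in its place. FreshFrozen_HCl sections were fresh-frozen and permeabilized with 0.1 N HCl for 5 min, and FreshFrozen_TE sections were fresh-frozen and permeabilized with TE buffer at 70 °C for 1 h. FixedFrozen_TE sections were fixed with 4% PFA before freezing and Paraffin_TE sections were fixed the same way and embedded in paraffin, and both received the TE treatment. The study's protocol also puts 4% PFA briefly on every section, frozen or paraffin, before it is permeabilized. The names fresh-frozen and fixed therefore refer to the tissue before sectioning. The assay was photo-isolation chemistry, in which cDNA is made on the section from a light-caged primer and only cDNA from the illuminated region is amplified and read as 3′ tags. A unique molecular identifier (UMI) marks each captured molecule, and levels are given as CPM, the gene's UMIs scaled to 1000000 UMIs of the sample. The 4 replicates of a region in a condition carried separate barcodes inside 1 pooled library, so region and library cannot be told apart within a condition. An illuminated region holds every cell type under the light, and fewer cells of a type and less RNA per cell cannot be told apart here.

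Metabotropic glutamate receptors are G-protein-coupled receptors that bind the same transmitter as the glutamate-gated ion channels but act through slower signaling cascades. Grm5 belongs to group I, which couples to Gq, activates phospholipase C and releases calcium from internal stores, and in the hippocampus it sits mainly on dendrites around excitatory synapses. Grm2 and Grm3 form group II and Grm4, Grm7 and Grm8 belong to group III, and both groups couple to Gi and Go, lower cAMP and largely act on axon terminals to reduce transmitter release. Grm3 is also known as the main metabotropic glutamate receptor of adult astrocytes, and Grm2 is a classical receptor of the granule cell axons, the mossy fibers.

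Sample totals ranged from 35932 to 1111804 UMIs, with a median of 240646. The medians were 731106 UMIs in FreshFrozen_HCl, 629964 in FreshFrozen_TE, 122520 in FixedFrozen_TE and 67528 in Paraffin_TE. Replicate 4 of FreshFrozen_HCl CA1 was the shallowest fresh-frozen sample with 127253 UMIs. The summed CA1 and DG marker genes were highest in the region named on the label in every condition with no overlap between replicates. The summed CA3 markers were as well except in Paraffin_TE, where the lowest CA3 replicate had 418 CPM and the highest replicate of the other regions 482 CPM. Pooled over the conditions, not every gene of the CA1 and CA3 lists was highest in its own region.

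Grm5 gave 12113 UMIs over the 48 samples and was seen in every one. Grm3 gave 3420 UMIs, Grm7 1636, Grm4 478, Grm2 242 and Grm8 96. Grm7 was also seen in every sample, while Grm3 had no UMI in 6 samples, Grm4 in 4, Grm2 in 16 and Grm8 in 17. A sample total of 35932 UMIs makes 1 UMI worth 27.8 CPM, so single-digit counts set most of the fixed-tissue values of Grm2, Grm3, Grm4 and Grm8. Intervals on counts cover counting error only.

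**Figure D1:**
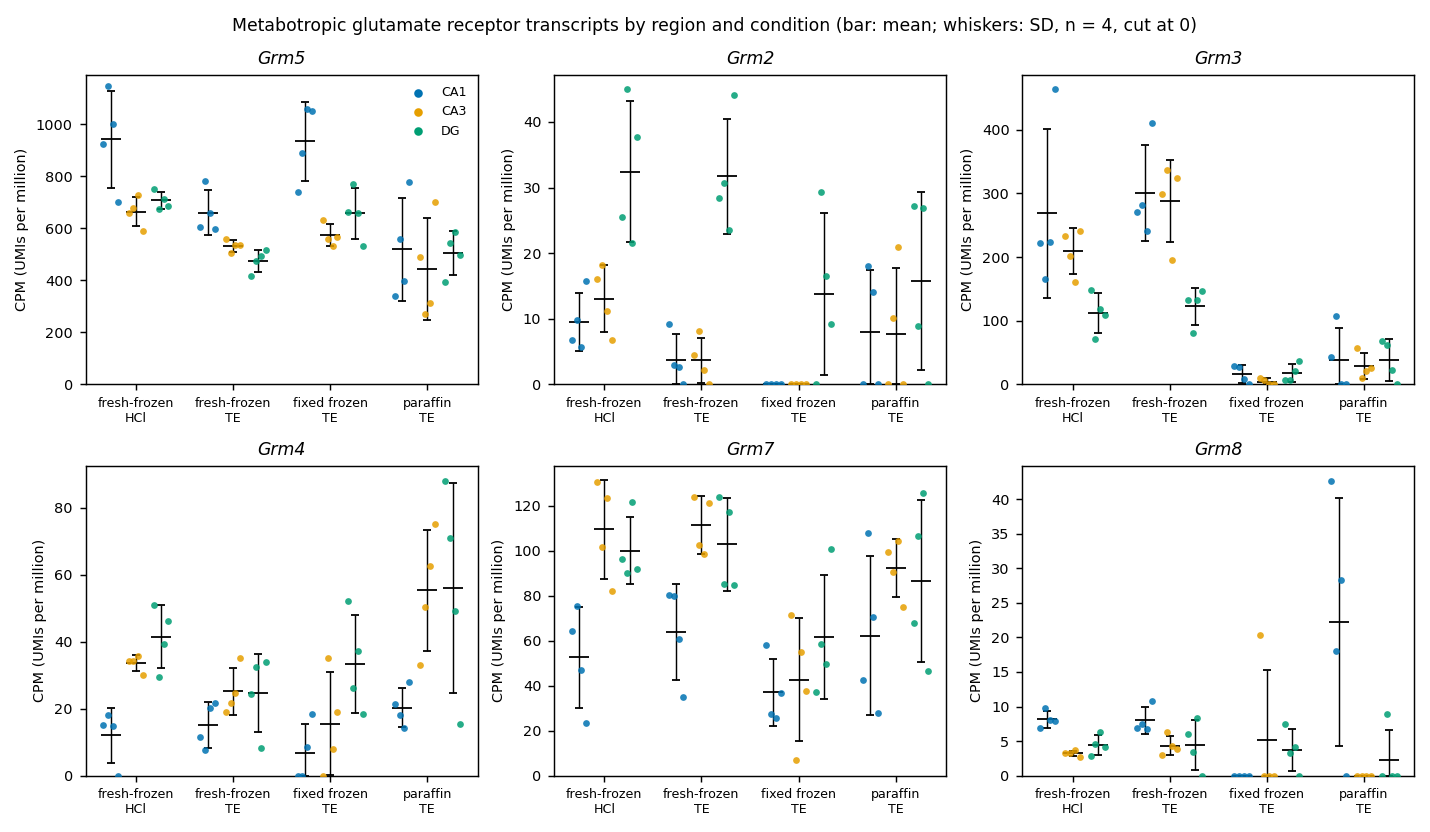
CPM of the 6 receptor genes (y axis, linear from 0, own scale for each gene) in every replicate, by condition (x axis) and region (color). Horizontal bars are means and whiskers SD over 4 replicates, cut at 0; Grm3 dropped from 71.3 CPM or more in every fresh-frozen sample to 36.7 CPM or less in every fixed frozen one.

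Between CA1 and DG, 4 of the 6 receptor genes passed the test in FreshFrozen_HCl, where 17.0% of all genes tested did (edgeR's quasi-likelihood test, adjusted p under 0.05). In FreshFrozen_TE 3 of 6 passed against 10.1% of all genes, in FixedFrozen_TE 2 of 5 tested against 8.14%, and in Paraffin_TE 0 of 5 against 3.29%. Between CA3 and DG, 2 of 6 passed in FreshFrozen_HCl (8.99% of all genes), 2 of 6 in FreshFrozen_TE (7.91%), 1 of 5 in FixedFrozen_TE (9.27%) and 0 of 5 in Paraffin_TE (3.21%). Between CA1 and CA3, 3 of 6 passed in FreshFrozen_HCl (9.13%), 1 of 6 in FreshFrozen_TE (4.40%), 1 of 3 in FixedFrozen_TE (7.20%) and 0 of 4 in Paraffin_TE (2.36%). A gene was tested where its UMIs summed to at least 10 over the samples compared, so 63 of 72 tests were made. In Paraffin_TE, 1 of the 14 tests reached an unadjusted p under 0.05 with edgeR and 0 with DESeq2.

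Grm5, the group I gene described here, was highest in CA1 by mean in all 4 conditions, but in Paraffin_TE the fitted difference of CA1 from DG was -0.05 ± 0.25 (log2, SE) and CA1 was 0.956 times DG by summed counts. In FreshFrozen_TE the replicates had 603, 782, 660.5 and 596 CPM in CA1, 560.1, 504, 534 and 535 CPM in CA3, and 417, 475, 493 and 516 CPM in DG. Every CA1 replicate was above every replicate of both other regions. CA1 exceeded DG by 0.51 ± 0.14 (log2, SE, adjusted p = 0.0158), and it did not pass without CA1 replicate 2 (adjusted p = 0.0785) or DG replicate 1 (0.0721).

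In FreshFrozen_HCl Grm5 had 925, 1146, 999.6 and 699 CPM in CA1, 659, 677, 727 and 591 CPM in CA3, and 752, 675, 713 and 687 CPM in DG. CA1 overlapped both other regions through its replicate 4. The difference of CA1 from CA3 was 0.47 ± 0.15 (log2, SE, adjusted p = 0.0408), and it did not pass in 6 of the 8 fits that left out 1 replicate: without CA1 replicate 2 (adjusted p = 0.160) or 3 (0.0934), or without CA3 replicate 1 (0.0874), 2 (0.0575), 3 (0.0564) or 4 (0.116). In FixedFrozen_TE the CA1 replicates had 739, 890.1, 1057 and 1052 CPM, the CA3 replicates 631, 558, 532 and 568 CPM, and the DG replicates 663, 772, 660.0 and 532 CPM. CA1 stood clear of CA3 and overlapped DG. CA1 exceeded CA3 by 0.68 ± 0.18 (log2, SE, adjusted p = 0.00594), a call lost without CA1 replicate 3 (adjusted p = 0.0584) or CA3 replicate 3 (0.0637). In Paraffin_TE the means were 519 ± 197 CPM in CA1, 444 ± 196 in CA3 and 505 ± 83.1 in DG (SD, n = 4), and the regions overlapped. No difference between CA3 and DG passed in any condition, with log2 values from -0.22 to 0.22.

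Grm2, a group II autoreceptor of glutamatergic terminals, was higher in DG than in CA1 and CA3 in both fresh-frozen conditions. In FreshFrozen_TE the DG replicates had 28.5, 30.7, 23.5 and 44.2 CPM, against 9.19, 3.01, 2.70 and 0 CPM in CA1 and 4.42, 8.09, 2.14 and 0 CPM in CA3. The lowest DG replicate was above the highest replicate of either other region. The log2 fold change was -2.69 ± 0.45 for CA1 minus DG (SE, adjusted p = 4.09e-05) and -2.75 ± 0.44 for CA3 minus DG (adjusted p = 8.20e-05).

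In FreshFrozen_HCl Grm2 had 25.5, 45.0, 21.6 and 37.7 CPM in DG, 6.84, 9.84, 5.75 and 15.7 CPM in CA1, and 16.1, 18.2, 11.1 and 6.84 CPM in CA3. DG again did not overlap the other regions. CA1 was lower than DG by -2.0 ± 0.42 (log2, SE, adjusted p = 0.000511) and CA3 by -1.22 ± 0.35 (adjusted p = 0.0239). The second of these was lost without CA3 replicate 3 (adjusted p = 0.0690) or 4 (0.0719), or without DG replicate 2 (0.177) or 4 (0.0541).

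In FixedFrozen_TE no Grm2 UMI was found in CA1 or CA3, while the DG replicates held 0, 9, 4 and 1 UMIs. A count of 0 was given a limit of 3 UMIs over the 4 replicates, 7.12 CPM in CA1 and 7.14 CPM in CA3. The summed DG level of 17.7 CPM was 2.48-fold the CA1 limit and 2.47-fold the CA3 limit. These folds leave out the counting error of DG, whose 95% interval ran from 9.66 to 29.6 CPM. Both comparisons passed (adjusted p = 0.0352 and 0.0408). Both calls were lost without the filter on low counts (0.0708 and 0.0719), with the replicate number as a block (0.0733 and 0.0963), and in 5 of the 7 fits each that left out 1 replicate and still tested the gene. For CA1 these were CA1 replicates 1 to 4 (adjusted p = 0.0706, 0.172, 0.103 and 0.0746) and DG replicate 3 (0.0645), and for CA3 they were CA3 replicates 1 to 4 (0.0848, 0.121, 0.108 and 0.0683) and DG replicate 3 (0.0719). In Paraffin_TE Grm2 had 2 UMIs in CA1, 2 in CA3 and 11 in DG, and DG over CA1 was 2.1-fold by summed counts with a 95% exact interval from 0.459 to 19.5. No difference was detectable at that depth. The gene lies at chr9:106643095-106656082 on the minus strand (GRCm38), and the span of an antisense gene overlaps an exon. The counts were made without strand, and how reads in that overlap were assigned was not examined.

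Grm3, the other group II gene, had the opposite order to Grm2 in fresh-frozen tissue. In FreshFrozen_TE the replicates had 271, 282, 240.4 and 410.1 CPM in CA1, 299, 336, 195 and 324 CPM in CA3, and 132, 80.1, 133 and 146 CPM in DG. Every DG replicate was below every CA1 and CA3 replicate. CA1 exceeded DG by 1.33 ± 0.19 (log2, SE, adjusted p = 3.37e-06) and CA3 exceeded DG by 1.31 ± 0.20 (adjusted p = 3.10e-05).

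In FreshFrozen_HCl Grm3 had 222, 166, 224 and 464 CPM in CA1, 233, 202, 160.5 and 241 CPM in CA3, and 148, 71.3, 118 and 109 CPM in DG. DG was again below both other regions without overlap, and the highest value came from the shallow CA1 replicate 4. CA1 exceeded DG by 1.16 ± 0.24 (log2, SE, adjusted p = 0.000396), which passed in every fit that left out 1 replicate, and CA3 exceeded DG by 0.96 ± 0.19 (adjusted p = 0.00161). CA1 and CA3 did not pass against each other in either condition, at 0.17 ± 0.21 in FreshFrozen_HCl and 0.04 ± 0.19 in FreshFrozen_TE (log2, SE).

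Markers of glia did not share 1 direction between these regions. The summed level of 8 astrocyte genes was highest in DG by mean in both fresh-frozen conditions, from 3131 to 4094 CPM in FreshFrozen_HCl DG and from 2043 to 2462 CPM in CA1, and from 3684 to 5403 CPM in FreshFrozen_TE DG and from 2692 to 3489 CPM in CA1. Slc1a3 is the largest part of this sum. Pooled over the conditions, not every gene of the list was highest in DG. Of the 6 oligodendrocyte genes, all 6 were higher in CA1 and in CA3 than in DG in both conditions, with median log2 differences from 1.42 to 1.68. From 7.91% to 17.0% of all genes tested passed in these comparisons, counting both directions. The part of these glial markers in the Grm3 difference was not tested. In the 24 fixed samples Grm3 had 62 UMIs in all, from 0 to 36.7 CPM in FixedFrozen_TE and from 0 to 108 CPM in Paraffin_TE, and the 3 regions overlapped in both. DG had the highest Grm3 mean in both, unlike in fresh-frozen tissue. In FixedFrozen_TE the difference from DG was 0.21 ± 0.74 in CA1 and -1.55 ± 1.03 in CA3 (log2, SE). In Paraffin_TE it was -0.11 ± 0.66 in CA1 and -0.28 ± 0.66 in CA3, and none of these passed.

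Grm4, a group III gene, was lowest in CA1 by mean in all 4 conditions. In FreshFrozen_HCl the replicates had 15.0, 18, 15.0 and 0 CPM in CA1, 34.3, 34.3, 35.8 and 30.1 CPM in CA3, and 51.1, 29.5, 39.3 and 46.1 CPM in DG. All CA1 replicates were below all others, and replicate 4 held no UMI. CA1 was lower than DG by -1.43 ± 0.35 (log2, SE, adjusted p = 0.00323) and lower than CA3 by -1.24 ± 0.32 (adjusted p = 0.0106), and both passed whichever replicate was left out.

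In FreshFrozen_TE Grm4 averaged 15.2 ± 6.81 CPM in CA1, 25.1 ± 7.05 in CA3 and 24.8 ± 11.7 in DG (SD, n = 4). The regions overlapped and no pair passed. In FixedFrozen_TE CA1 held 2 UMIs, CA3 7 and DG 26. DG over CA1 was 6.91-fold by summed counts (95% exact interval from 1.73 to 60.1), and the test passed at an adjusted p of 0.0331. DESeq2 gave this comparison an adjusted p of 0.177, and edgeR without the filter on low counts 0.0662. The call was also lost without CA1 replicate 1 (0.0818), 2 (0.274) or 3 (0.0567) and without DG replicate 1 (0.106) or 3 (0.0941). In Paraffin_TE each CA1 replicate held 1 UMI, from 14.1 to 27.8 CPM, against 33.1 to 75.2 CPM in CA3 and 15.6 to 88.1 CPM in DG. The CA1 and CA3 values did not overlap, but their difference of -1.30 ± 0.87 did not pass (log2, SE, adjusted p = 0.612).

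Grm7, the group III receptor of active zones in excitatory and inhibitory terminals, was also lower in CA1 than in CA3 and DG in fresh-frozen tissue. In FreshFrozen_HCl the replicates had 64.3, 75.4, 47.2 and 23.6 CPM in CA1, 131, 102, 123 and 82.1 CPM in CA3, and 96.5, 90.0, 122 and 92.1 CPM in DG. CA1 did not overlap either region. Its difference was -0.98 ± 0.22 from CA3 (log2, SE, adjusted p = 0.00367) and -0.81 ± 0.23 from DG (adjusted p = 0.0125), the latter lost without CA1 replicate 3 (0.0767) or DG replicate 3 (0.0688).

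In FreshFrozen_TE Grm7 had 80.4, 79.8, 60.8 and 35.1 CPM in CA1, 124, 103, 98.6 and 121 CPM in CA3, and 124, 85.2, 117 and 84.9 CPM in DG. CA1 was again below both regions without overlap. CA1 differed from CA3 by -0.75 ± 0.21 (log2, SE, adjusted p = 0.0314), a call lost without CA1 replicate 3 (0.108) or 4 (0.117) or CA3 replicate 1 (0.104) or 4 (0.0877). Its difference of -0.61 ± 0.22 from DG did not pass (adjusted p = 0.0673) but did with the replicate number as a block (-0.62 ± 0.17, adjusted p = 0.00321), a comparison in which equal numbers deviated together. CA3 and DG lay within 0.14 ± 0.19 of each other in both conditions. In FixedFrozen_TE the means were 37.0 ± 14.8, 42.8 ± 27.4 and 61.6 ± 27.6 CPM in CA1, CA3 and DG, and in Paraffin_TE 62.3 ± 35.3, 92.4 ± 12.8 and 86.7 ± 35.9 CPM (SD, n = 4). CA1 kept the lowest mean in both, the regions overlapped and no pair passed. The span of an antisense gene also overlaps an exon of Grm7 (chr6:110645581-111567230, plus strand, GRCm38).

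Grm8, the third group III gene, was the scarcest. In FreshFrozen_HCl the replicates had 6.84, 9.84, 8.05 and 7.86 CPM in CA1, 3.22, 3.21, 3.70 and 2.74 CPM in CA3, and 2.84, 4.65, 6.35 and 4.19 CPM in DG, from 1 to 7 UMIs a replicate. Although CA1 did not overlap the other regions, its difference from CA3 did not pass (1.24 ± 0.56, log2, SE, adjusted p = 0.182). In FreshFrozen_TE CA1 averaged 7.99 ± 1.90 CPM, CA3 4.36 ± 1.41 and DG 4.47 ± 3.61 (SD, n = 4), and CA1 again passed against neither. Of the 24 fixed samples 16 held no Grm8 UMI and 11 UMIs were counted in all, so no order of the regions can be read there.

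**Figure D2:**
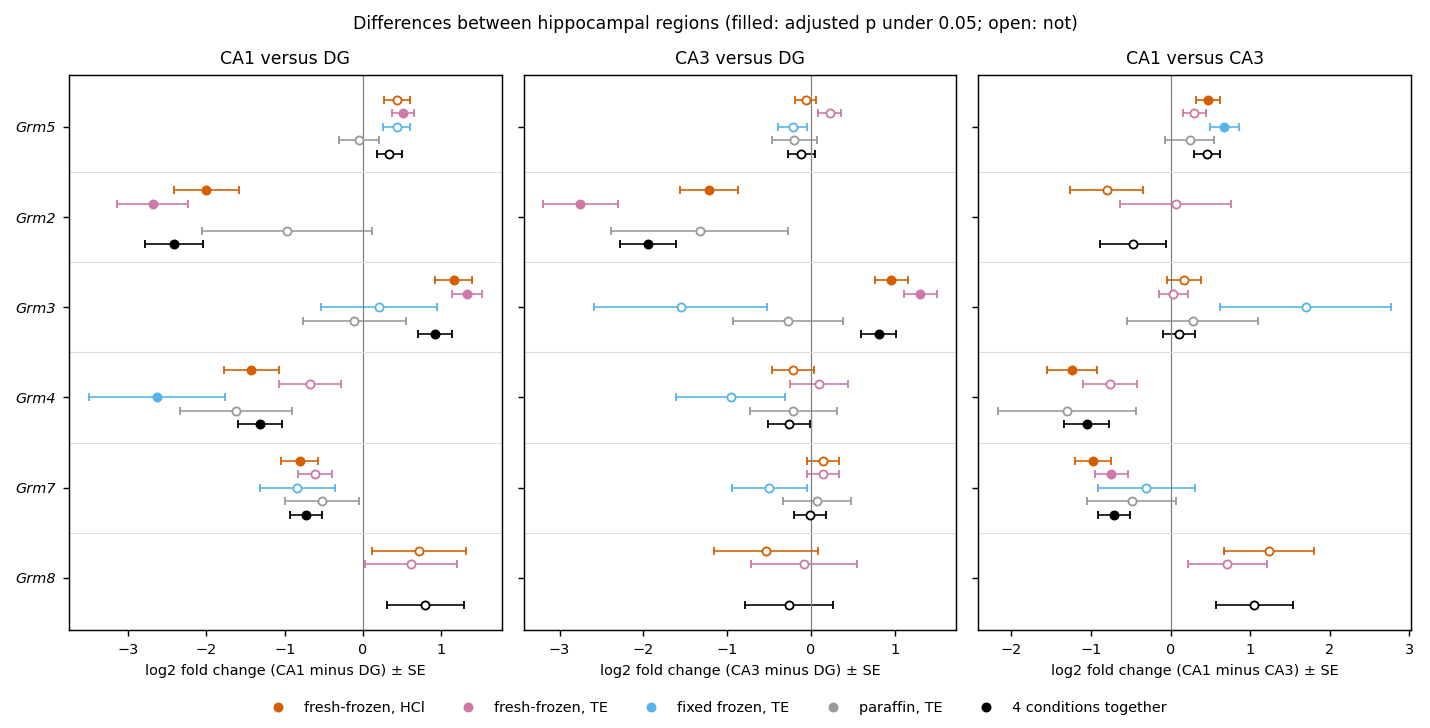
Log2 fold change ± SE (x axis) between pairs of regions for the 6 receptor genes (y axis) in each condition and over the 4 conditions together, filled where the adjusted p was under 0.05. Grm2 lies to the left and Grm3 to the right of 0 against DG in the fresh-frozen conditions, and Grm4 and Grm7 lie to the left of 0 wherever CA1 is compared; untested pairs and pairs with 0 UMIs in a region are left out.

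The 4 conditions were then fitted jointly, with the 4 replicates of a library summed and the condition as a covariate over the 12 libraries. Between CA1 and DG 4 of 6 receptor genes passed against 10.2% of all genes, between CA3 and DG 2 of 6 against 8.18%, and between CA1 and CA3 2 of 6 against 4.67%. These libraries are the same samples as above and add no independent evidence. CA1 differed from DG by -2.42 ± 0.37 for Grm2 (log2, SE, adjusted p = 5.65e-09), 0.92 ± 0.21 for Grm3 (0.000370), -1.31 ± 0.28 for Grm4 (0.000119) and -0.73 ± 0.21 for Grm7 (0.00668). CA3 differed from DG by -1.94 ± 0.34 for Grm2 (adjusted p = 6.27e-07) and 0.81 ± 0.21 for Grm3 (0.00246). The Grm3 values do not show its order in the fixed conditions, where DG had the highest mean. CA1 was below CA3 by -1.05 ± 0.28 for Grm4 (adjusted p = 0.00688) and by -0.71 ± 0.21 for Grm7 (0.0155). Grm5 (0.34 ± 0.16 between CA1 and DG, adjusted p = 0.203) and Grm8 (0.79 ± 0.49, 0.367) did not pass in any pair.

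The Grm2 differences passed in every fit that left out 1 library. Grm3 was lost between CA1 and DG without the FreshFrozen_TE DG library (adjusted p = 0.193) and with DESeq2 (0.103), and between CA3 and DG with DESeq2 (0.275) or without the CA3 or DG library of FreshFrozen_HCl (0.148 and 0.121) or of FreshFrozen_TE (0.257 and 0.402). Grm7 was lost between CA1 and DG without the FreshFrozen_HCl CA1 library (0.112). Between CA1 and CA3, Grm4 and Grm7 were both lost without the CA1 or CA3 library of FreshFrozen_HCl (0.104 and 0.156 for Grm4, 0.196 and 0.351 for Grm7) or the FreshFrozen_TE CA3 library (0.0762 and 0.140). Without the paraffin libraries the counts were 4, 2 and 2 as before.

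Whether a regional difference depended on the condition was tested as an interaction against FreshFrozen_TE. None of 54 tests passed with edgeR, and none of the 31 for which DESeq2 gave an adjusted p passed with it. Of all genes tested with edgeR, the difference of CA1 from DG depended on the condition for 1.22% in FreshFrozen_HCl, 0.265% in FixedFrozen_TE and 0.678% in Paraffin_TE. For CA3 against DG these shares were 0.0936%, 0.290% and 0.460%, and for CA1 against CA3 they were 0.578%, 0.340% and 0.367%. At an unadjusted p under 0.05 there were 8 with edgeR and 3 with DESeq2. The Grm3 difference of CA3 from DG came nearest, lower in FixedFrozen_TE than in FreshFrozen_TE by -2.96 ± 0.94 (log2, SE, adjusted p = 0.181). The low fixed-tissue counts leave its size there poorly known.

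The conditions themselves were compared with region as a covariate over the 24 replicates of each pair. These 3 comparisons share samples, and each condition was prepared as its own set of libraries, so treatment and library set cannot be told apart. Between HCl and TE on fresh-frozen sections, 2 of 6 receptor genes passed against 30.6% of all genes (16.2% higher with HCl and 14.3% lower). Between fixed frozen and fresh-frozen sections in TE 4 of 6 passed against 48.7% (15.8% higher in fixed frozen sections and 32.9% lower), and between paraffin and fixed frozen sections 4 of 6 against 28.0% (13.7% higher in paraffin and 14.4% lower).

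Grm3 differed most between fixed frozen and fresh-frozen sections. Its 12 fresh-frozen TE samples ran from 80.1 CPM through a median of 256 to 410.1 CPM, and its 12 fixed frozen samples from 0 through 7.99 to 36.7 CPM. No sample of the first set overlapped the second in any region. CA1 fell from 301 ± 75.0 to 16.3 ± 14.3 CPM, CA3 from 289 ± 64.3 to 4.31 ± 5.14 CPM, and DG from 123 ± 29.1 to 17.8 ± 14.1 CPM (SD, n = 4). By summed counts the fresh-frozen level was 15.0-fold higher in CA1 (95% exact interval from 7.57 to 34.9), 60.1-fold in CA3 (from 16.6 to 497, with 2 UMIs in the fixed tissue) and 7.85-fold in DG (from 4.41 to 15.4).

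The fitted change of Grm3 was -4.0 ± 0.25 (log2, SE, adjusted p = 5.01e-26). The median of all genes moved by -0.39 in the same comparison, and 2.19% of the genes tested had a lower value than Grm3. The call held in every alternative and whichever replicate was left out. Of 8 astrocyte genes 6 also fell, where 32.9% of all genes did, with a median log2 difference of -1.03. The largest falls were those of the water channel Aqp4 (-3.00 ± 0.15) and the glutamate transporter Slc1a3 (-2.51 ± 0.12). The smallest that passed was -0.49 ± 0.18, and the filament gene Gfap did not pass (0.36 ± 0.18). Summed, the 8 genes ran from 2597 to 5403 CPM in FreshFrozen_TE and from 417 to 1468 CPM in FixedFrozen_TE. Of the oligodendrocyte genes 5 of 6 fell and 1 rose. The fall was not limited to lists of glia. The sum of 4 endothelial genes fell from 219 ± 41.3 to 68.6 ± 47.7 CPM in CA1 (SD, n = 4). In CA3 it fell from 197 ± 37.9 to 63.5 ± 45.5 CPM and in DG from 243 ± 38.4 to 114 ± 35.4 CPM. Some interneuron genes fell and others rose. The part of any of these lists in the Grm3 difference was not tested.

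In paraffin sections Grm3 was higher than in fixed frozen ones by 1.33 ± 0.44 (log2, SE, adjusted p = 0.0136), at 37.7 ± 51.0, 28.5 ± 20.6 and 38.1 ± 32.5 CPM in CA1, CA3 and DG (SD, n = 4). All 3 regions overlapped between the conditions, and the call was lost without replicate 1 (adjusted p = 0.232) or 2 (0.162). All 6 oligodendrocyte genes were higher in the paraffin sections, where 13.7% of all genes were, with a median of 1.69, and 2 of 7 astrocyte genes were. Their part was not tested. Grm3 was also lower with HCl than with TE on fresh-frozen sections, by -0.46 ± 0.13 (adjusted p = 0.00602), with overlap in every region, and it did not pass without replicate 2 (0.0538).

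**Figure D3:**
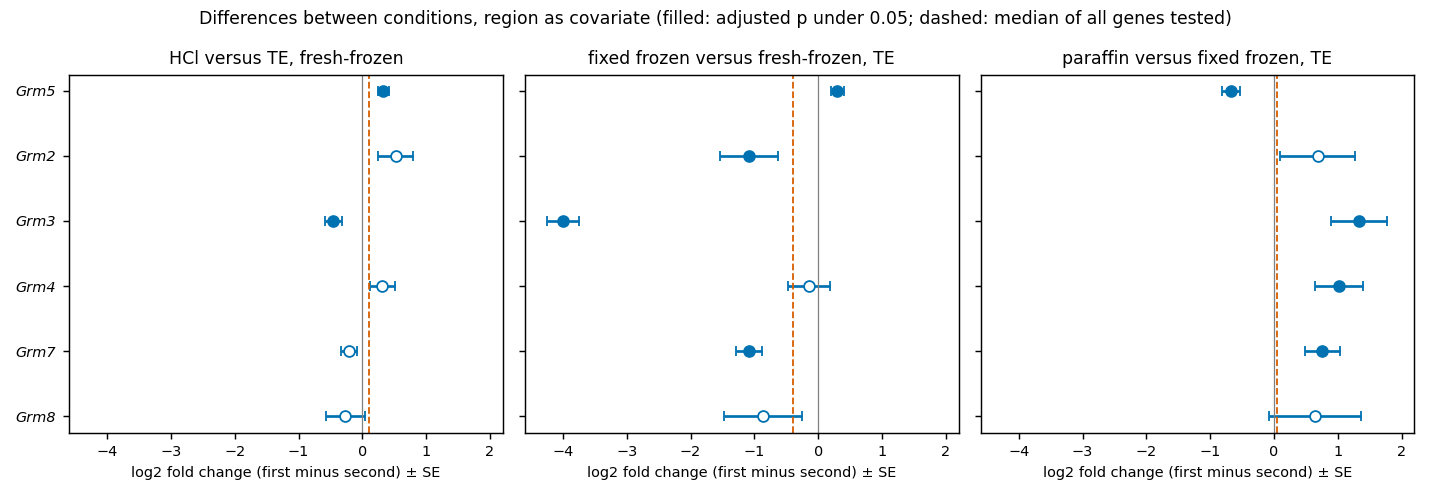
Log2 fold change ± SE (x axis) of the 6 receptor genes (y axis) in the 3 comparisons of conditions with region as a covariate; filled points had an adjusted p under 0.05 and the dashed line is the median of all genes tested. Grm3 at -4.0 in fixed frozen against fresh-frozen sections stands far to the left of that median of -0.39.

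Grm5 passed in all 3 comparisons of conditions, with fitted changes from -0.67 to 0.33 (log2). It was higher with HCl than with TE by 0.33 ± 0.09 (log2, SE, adjusted p = 0.00298), where the median of all genes was 0.10. It was higher in fixed frozen than in fresh-frozen sections by 0.30 ± 0.10 (adjusted p = 0.0122), where that median was -0.39. The first did not pass with library sums in place of replicates (0.129), and the second without the filter on low counts (0.0632) or without replicate 2 (0.0545) or 3 (0.181). In paraffin sections Grm5 was below fixed frozen ones by -0.67 ± 0.15 (adjusted p = 6.71e-05), with overlap in each region. Scaling by DESeq2 size factors moved the median of all genes in that comparison from 0.05 to 0.22 and the Grm5 value to -0.48.

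Grm7 was lower in fixed frozen than in fresh-frozen sections by -1.08 ± 0.20 (log2, SE, adjusted p = 4.16e-06), against the median of -0.39. In CA3 the conditions did not overlap, with 98.6 to 124 CPM in fresh-frozen and 7.06 to 71.3 CPM in fixed frozen tissue. The call held in every alternative in which Grm7 was tested. In paraffin sections Grm7 was higher than in fixed frozen ones by 0.76 ± 0.27 (adjusted p = 0.0243), lost without replicate 2 (0.272) or 3 (0.183).

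Grm2 was lower in fixed frozen than in fresh-frozen sections by -1.08 ± 0.45 (log2, SE, adjusted p = 0.0407). The call was lost with DESeq2 (0.0564), with library sums (0.119) and without replicate 1 (0.187) or 4 (0.0793), and the samples overlapped in every region. Grm4 did not pass there (-0.15 ± 0.33) and was higher in paraffin than in fixed frozen sections by 1.02 ± 0.38 (adjusted p = 0.0324), a call lost with library sums (0.0551) and without replicate 1 (0.130), 2 (0.111) or 3 (0.0675). Grm8 passed in none of the 3 comparisons.

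The genes most like a receptor in their level over the regions were named. A receptor needed at least 5 UMIs in every library, which Grm5 and Grm7 met. Each gene's log2 CPM (1 CPM added) in the 12 libraries was centered on its mean within each condition. Over 1827 candidate genes the highest Pearson r with Grm5 was 0.961 for Baiap2, 0.959 for Anks1b and 0.958 for Far1. For Grm7 it was 0.943 for Map2k1, 0.928 for Tanc1 and 0.927 for Gabbr2, a subunit of the GABA-B receptor. Centering removed the differences between conditions, so these values describe a common pattern over the regions. The 12 centered points are not independent of each other.

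Around the receptors, 51 genes of their scaffolds, G-protein cascades and glutamate handling were measured, and 26 passed between at least 1 pair of regions over the 12 libraries. The count of 26 has no share of all genes beside it, because that share was taken for each pair alone. Between CA1 and DG 13 were higher in CA1 (4.64% of all genes were), 7 lower (5.52%) and 31 did not pass, with a median log2 difference of 0.14 beside 0.00 for all genes. Between CA3 and DG 10 were higher in CA3 (3.88%), 6 lower (4.30%) and 35 did not pass, with a median of 0.06 beside -0.01. Between CA1 and CA3 6 were higher in CA1 (2.05%), 3 lower (2.61%) and 42 did not pass, with a median of 0.04 beside 0.02. The count between CA1 and CA3 was 18 when the 48 replicates were fitted in place of the library sums, and that between CA3 and DG was 10 without the FreshFrozen_HCl DG library.

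Of 16 scaffold and binding partner genes 6 were higher and 1 lower in CA1 than in DG. Homer1, whose protein ties group I receptors to the postsynaptic scaffold and to calcium stores, was higher by 0.71 ± 0.17 (log2, SE, adjusted p = 0.000503), and Homer2 by 0.60 ± 0.18 (0.0124). Homer3 had another order, higher in CA3 than in DG by 0.84 ± 0.26 (adjusted p = 0.0214) and lower in CA1 than in CA3 by -1.48 ± 0.29 (1.81e-05). Arc, an immediate early gene for a postsynaptic protein, exceeded its DG level in CA1 by 1.18 ± 0.22 (2.33e-06), and Frmpd4, a scaffold protein gene, by 1.24 ± 0.28 (0.000327).

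Of 13 genes of the Gq cascade 4 were higher and 1 lower in CA1 than in DG, and 4 were higher in CA3 than in DG. The protein kinase C genes Prkca and Prkcb were higher than in DG in both CA regions. Prkcb exceeded DG by 1.23 ± 0.16 in CA1 (log2, SE, adjusted p = 7.77e-13) and 0.55 ± 0.16 in CA3 (0.00844), and Prkca by 0.84 ± 0.17 (2.27e-05) and 1.09 ± 0.17 (7.85e-09). Itpr1, the calcium release channel that IP3 opens, was higher in CA1 than in CA3 by 1.06 ± 0.18 (9.39e-07). Plcb4, a phospholipase C gene, was lower in CA1 than in DG by -0.79 ± 0.24 (0.0129).

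Of 14 genes of the Gi and Go cascade 3 were higher and 2 lower in CA1 than in DG, and 3 were higher and 4 lower in CA3 than in DG. Adcy1, a calcium-stimulated adenylyl cyclase gene, was lower than in DG by -0.81 ± 0.16 in CA1 (log2, SE, adjusted p = 2.52e-05) and by -1.72 ± 0.17 in CA3 (5.82e-22). Kcnj3, a subunit of the potassium channels that G-proteins open, was lower by -0.82 ± 0.18 in CA1 (0.000146) and -0.92 ± 0.18 in CA3 (1.35e-05). Gnai1, an inhibitory G-protein alpha subunit, was higher by 1.07 ± 0.19 in CA1 (5.87e-07) and 0.98 ± 0.18 in CA3 (7.17e-06).

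Of 8 genes of glutamate handling 3 were lower in CA1 than in DG and none was higher, and in CA3 2 were lower and 1 higher. Slc17a6, a vesicular glutamate transporter gene, was lower than in DG by -2.43 ± 0.21 in CA1 (log2, SE, adjusted p = 2.76e-28) and -1.40 ± 0.19 in CA3 (2.23e-11). Slc17a7, the other vesicular transporter gene, was higher in CA3 than in DG by 0.79 ± 0.18 (0.000538). Slc7a11, a subunit of the cystine-glutamate exchanger, was lower in CA1 than in DG by -1.27 ± 0.26 (5.50e-05). Slc1a3, the astrocyte glutamate transporter gene, was lower by -0.65 ± 0.17 in CA1 (0.00201) and -0.66 ± 0.16 in CA3 (0.00164). Slc1a3 is itself among the astrocyte genes summed above, so its direction is no separate result from that sum. Between fixed frozen and fresh-frozen sections 6 of the 8 genes of glutamate handling fell (32.9% of all genes did) and 1 rose (15.8%), with a median of -0.99 beside -0.39 for all genes.

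**Figure D4:**
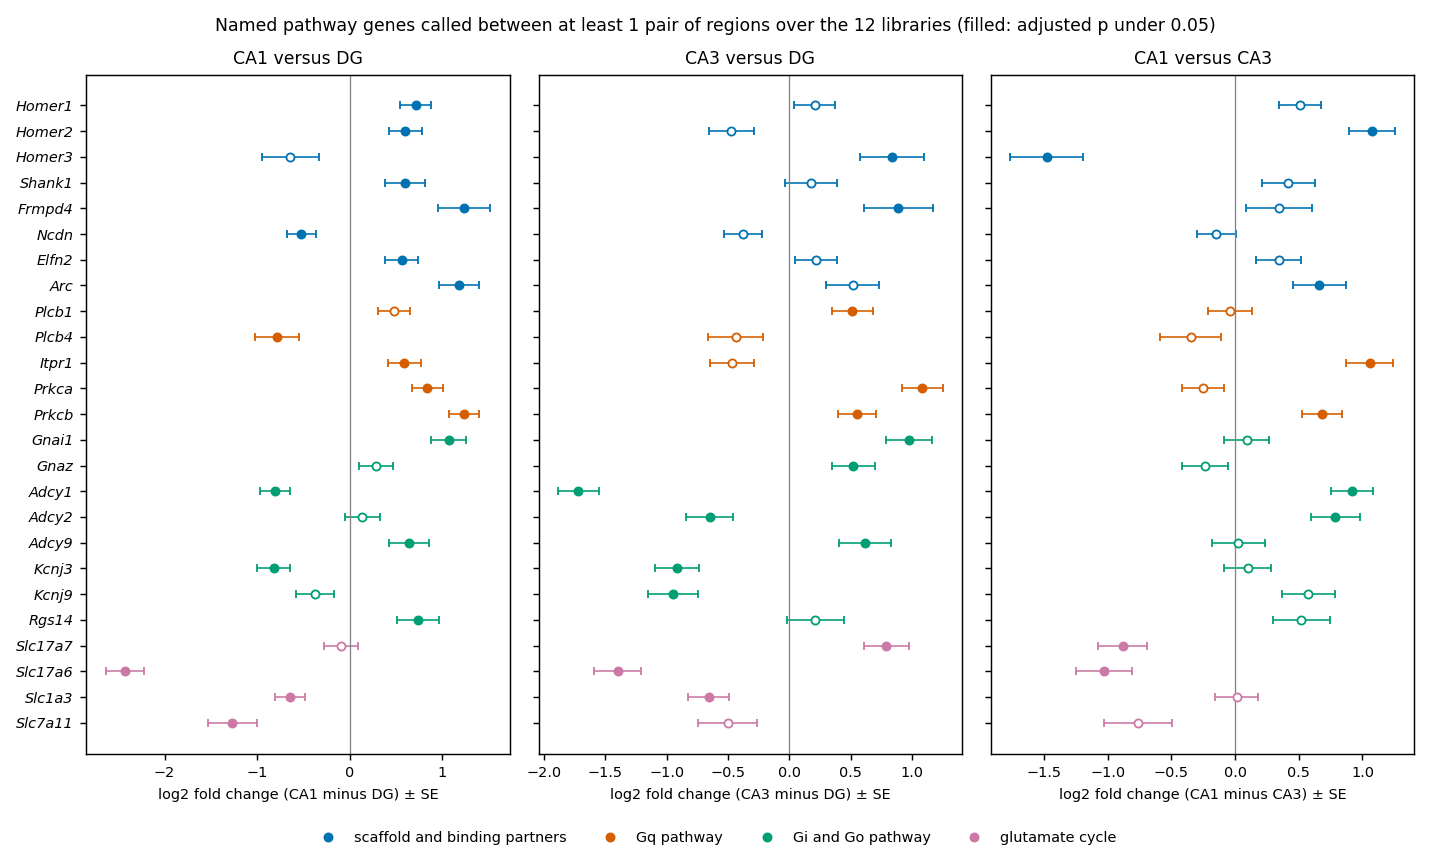
Log2 fold change ± SE (x axis) between pairs of regions over the 12 libraries for 25 of the 26 pathway genes (y axis) that passed in at least 1 pair; color gives the list and filled points had an adjusted p under 0.05. The protein kinase C genes Prkca and Prkcb lie right of 0 against DG in both CA regions, and Adcy1, Kcnj3 and Slc17a6 lie left of 0.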

How the data were processed

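The authors trimmed reads with Trim Galore!, mapped them with HISAT2 2.1.0 to GRCm38, assigned them to genes with featureCounts 1.6.4 at its default setting without strand, and counted molecules with UMI-tools 1.0.0. The release of their gene annotation is not given in the sources used here. The deposited values are UMI counts per gene, with 48 sample columns, and no column was left out. Counts were divided by each sample's total to give CPM. The study calls the 4 replicates of a group biological replicates, but the labels do not tie numbers to animals, so p-values measure the spread between these samples.

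Tests used edgeR 4.0.16 in R 4.3.3 (TMM scaling, quasi-likelihood, a minimum of 10 UMIs per gene over the samples in a fit, Benjamini-Hochberg adjustment over all genes tested, threshold 0.05), with DESeq2 1.42.0 as an alternative. The SE printed with an edgeR log2 value was derived from the test, as its absolute value divided by the square root of the F statistic. The fits were tested on simulated data. Regions were compared within each condition and over 12 library sums with condition as covariate, and conditions with region as covariate. Leave-one-out fits, DESeq2, its size factors, no filter, thinning to 35932 UMIs and a replicate block were the alternatives. Equal replicate numbers deviated together (r over 0.1 for all 4 numbers) in 4 of 12 comparisons of regions, which were CA3 against DG in FreshFrozen_HCl and all 3 pairs in FreshFrozen_TE, and in 2 of 9 comparisons of conditions within a region. Gene positions came from the GENCODE annotation of GRCm38. Of 53 pathway symbols 51 were in the table. All 6 receptor genes are described, and pathway genes are named only where they passed over the 12 libraries. Some genes that enter the counts of the pathway and marker lists are not reported here by name. The receptor genes and the lists of pathway and marker genes were chosen with earlier results of these data known.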

Additional observations from a re-analysis of the deposited data

Results flagged for a closer look

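In the 72 groups of 4 replicates, Dixon's test at the 95% level marked 3 sample values. Chance marks about 1 in 20 groups of continuous values, a rate that need not hold for counts this low. Grm4 in FreshFrozen_HCl CA1 replicate 4 was lowest at 0 CPM, while the other 3 replicates had 15.0 to 18 CPM. Grm8 in FixedFrozen_TE CA3 replicate 1 was highest at 20.4 CPM, which was 2 UMIs, with 0 in the others. Grm8 in Paraffin_TE DG replicate 2 was highest at 8.89 CPM, which was 1 UMI, with 0 in the others. Where the other 3 replicates hold 0, the rule marks any UMI, so the Grm8 marks say little.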

How the results depend on the processing

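Thinning every sample to 35932 UMIs cut the receptor genes called within conditions from 9 to 3 between CA1 and DG, from 5 to 1 between CA3 and DG and from 5 to 1 between CA1 and CA3. Over the 12 libraries it cut them from 4 to 1, from 2 to 1 and from 2 to 0, and between conditions from 2 to 0 (HCl and TE), from 4 to 2 (fixed frozen and fresh-frozen) and from 4 to 0 (paraffin and fixed frozen). Fewer genes reach 10 UMIs after thinning, so fewer were tested. DESeq2 called 1 between CA3 and DG over the libraries, and library sums called 1 between HCl and TE; the cause was not tested. DESeq2 gave no adjusted p for Grm2 between DG and either CA region in FixedFrozen_TE.

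Leaving out 1 replicate gave 7 to 10, 4 to 5 and 4 to 5 calls within conditions for the 3 pairs in the order above, and leaving out 1 library gave 3 to 4, 1 to 2 and 0 to 3 over the libraries. Between conditions it gave 1 to 2, 3 to 3 and 1 to 4. The pathway counts ran from 14 to 21, 10 to 17 and 7 to 10, and the last was 18 with 48 replicates in place of library sums. Interactions stayed at 0 in each alternative run, where DESeq2 gave 31 of 54 adjusted p-values. Of 37 calls of single genes 10 passed in each alternative in which they were tested, 92 of 496 alternative values lost the call and 0 changed direction.

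With the replicate number as a block the counts within conditions were 11, 4 and 5, those between conditions 2, 4 and 4, and the interactions 0. Besides Grm7 in FreshFrozen_TE, the block changed 4 calls in comparisons where equal numbers did not all deviate together by the limit of 0.1. The lowest r was 0.00104 for CA1 against DG in FreshFrozen_HCl. In FixedFrozen_TE r ran from 0.0854 to 0.252 for CA1 against DG and from 0.0537 to 0.211 for CA3 against DG. Between CA1 and DG, Grm5 passed in FreshFrozen_HCl (adjusted p = 0.0436) and FixedFrozen_TE (0.0109). In FixedFrozen_TE, Grm2 no longer passed between DG and CA1 (0.0733) or CA3 (0.0963). Every sample correlated best with its own number in 4 of the 12 comparisons of regions.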

Other observations

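The genes around the receptors also differed between conditions. Between HCl and TE on fresh-frozen sections, where the median log2 difference of all genes was 0.10, 8 of 16 scaffold and binding partner genes were higher with HCl (16.2% of all genes were) and 2 were lower (14.3%), with a median of 0.47. Of the 13 genes of the Gq cascade 2 were higher and 4 lower there, with a median of -0.06. Between paraffin and fixed frozen sections, where the median of all genes was 0.05, 6 of 12 Gq cascade genes tested were lower in paraffin (14.4% of all genes were) and none was higher (13.7%), with a median of -0.49. Of 13 Gi and Go cascade genes tested 5 were lower and none was higher, with a median of -0.33. Which genes these were was not examined further, and each condition was a separate set of libraries.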
